A study of Mus musculus with 4 samples.

Results

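The endocytic receptor machinery of the proximal tubule was followed through 6 genes, Lrp2, Cubn, Amn, Dab2, Clcn5 and Ocrl as a list of named genes. All 6 had a row among the 19609 gene rows used. Single nucleus RNA sequencing was done on the kidney cortex of 4 male mice of mixed strain, with 1 mouse in each condition, and each value is the mean normalized expression of a gene over the nuclei of 1 of 23 clusters in 1 mouse, on a linear scale where the genes of a column sum to 10000. The mouse called control carried the TRE-hKLF6 transgene alone and had no treatment by its label. The mouse called control + AAI had the same genotype and received aristolochic acid I (AAI), a plant nephrotoxin that is taken up by the proximal tubule. The hKLF6 OE and hKLF6 OE + AAI mice carried CAG-rtTA and TRE-hKLF6, which together switch on human KLF6 under doxycycline, without and with AAI. The CAG promoter is active in most cell types, so the overexpression was global and not limited to the tubule. All mice were on a diet with 200 mg/kg doxycycline for 1 week. AAI, dissolved in DMSO, was given as 1 intraperitoneal injection of 2 mg/kg, and kidneys were taken 24 hours later. The study's methods name DMSO alone as the control injection of its AAI model. They do not say whether the mice without AAI used here received it.

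Megalin, the product of Lrp2, and cubilin, the product of Cubn, are large receptors of the apical membrane that take albumin, vitamin-carrier proteins and other filtered ligands out of the urine. Cubilin has no membrane-spanning part and needs amnionless (Amn) to reach the cell surface, and Dab2 is the adaptor that couples megalin to clathrin. Clcn5 encodes a chloride-proton exchanger of early endosomes and Ocrl a phosphoinositide 5-phosphatase of the same compartment, and their loss causes the low molecular weight proteinuria of Dent disease and Lowe syndrome.

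On GRCm38, the genes as annotated by GENCODE were Lrp2 at chr2:69424340-69586065 and Cubn at chr2:13276338-13491813, both on the minus strand, Amn at chr12:111271095-111276426, Dab2 at chr15:6299788-6440712 and Ocrl at chrX:47912387-47965868, all on the plus strand, and Clcn5 at chrX:7153810-7319358 on the minus strand. Their genomic spans, introns included, were 161.7 kb for Lrp2, 215.5 kb for Cubn, 5.33 kb for Amn, 140.9 kb for Dab2, 165.5 kb for Clcn5 and 53.5 kb for Ocrl. Dab2 overlaps the antisense gene Gm16311, which has its own row in the table, and whether the counting used strand is not given in the sources used here. Lrp2, Cubn and Dab2 were low together in the injured proximal tubule cluster InjuredPT-A, and Amn was not. For these genes the 250 bases before the start site are given. They are RefSeq sequences of GRCm38.p6, written 5′ to 3′ in the direction of transcription, with matches to 3 motifs in capitals. The motifs, searched on both strands, were the HNF1 consensus GTTAATNATTAAC with at least 9 of its 12 fixed letters, the GC box GGGCGG and the E box CACGTG, which 7.58%, 32.7% and 6.02% of 32851 such windows of the genome held. The motifs did not overlap each other in these windows.
Lrp2, chr2:69586030-69586279, minus strand: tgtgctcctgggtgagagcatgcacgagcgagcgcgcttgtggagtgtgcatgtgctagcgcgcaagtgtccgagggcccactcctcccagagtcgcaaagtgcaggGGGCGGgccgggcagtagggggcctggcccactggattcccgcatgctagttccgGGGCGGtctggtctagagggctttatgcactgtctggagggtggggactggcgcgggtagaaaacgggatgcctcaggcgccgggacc
Cubn, chr2:13491877-13492126, minus strand: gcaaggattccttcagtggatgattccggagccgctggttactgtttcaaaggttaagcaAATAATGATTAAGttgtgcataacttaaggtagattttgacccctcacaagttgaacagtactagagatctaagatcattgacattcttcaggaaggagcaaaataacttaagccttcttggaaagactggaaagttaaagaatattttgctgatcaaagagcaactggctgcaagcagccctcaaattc
Amn, chr12:111270846-111271095, plus strand: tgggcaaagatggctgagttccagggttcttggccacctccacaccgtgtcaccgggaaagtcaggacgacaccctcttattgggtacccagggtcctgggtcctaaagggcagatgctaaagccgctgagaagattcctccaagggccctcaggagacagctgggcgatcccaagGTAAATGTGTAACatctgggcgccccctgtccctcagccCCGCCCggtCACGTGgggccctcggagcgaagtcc
Dab2 (the second of its start sites), chr15:6386498-6386747, plus strand: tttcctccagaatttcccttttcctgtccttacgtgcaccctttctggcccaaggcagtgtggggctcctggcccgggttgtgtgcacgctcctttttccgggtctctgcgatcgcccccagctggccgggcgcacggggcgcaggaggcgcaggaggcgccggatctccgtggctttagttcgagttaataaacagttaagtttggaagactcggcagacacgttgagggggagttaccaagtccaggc
Cubn and Amn each held 1 HNF1 match, 190 and 74 bases before the start. Lrp2 held 2 GC boxes, and Amn 1 GC box and 1 E box. Neither Dab2 window held any of the 3 motifs, and neither did the Clcn5 window at chrX:7188715-7188964, while the Ocrl window and the other Clcn5 window held GC boxes. Counted as CG pairs, the windows differed widely, with 18 in Lrp2 and 17 in the Dab2 window shown but 2 in Cubn and 2 in the other Dab2 window, beside a median of 6 over all windows.

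The names of the clusters followed the defining markers in most cases. Nphs1 led in podocytes, Flt1 in EC-2, Slc12a3 in DCT, Aqp2 in CD_PC, Slc4a1 in IC-A and Slc26a4 in IC-B-2. Cd74 led in the macrophage cluster, Pdgfrb in MC, Fst in LH-DL, and Slc34a1 and Slc5a12 in PT-S1-S2-1. Slc12a1 was highest in LH-AL-1, LH-AL-2 and LH-AL-3, in that order. Some markers went the other way. The proximal tubule marker Slc22a6 led in InjuredPT-A, with MC next. Cldn10 of the ascending limb led in PT-S3-1, and Itga8 of the mesangium in the macrophage cluster. Scnn1g, listed for principal cells and the connecting tubule, led in CNT. Wt1 led in podocytes, with LH-DL next. The cluster named EC-1 went against its name, since its Flt1 level was 3.80 beside 22.7 in EC-2 while its Slc5a12 level was 17.3, the highest of any cluster after PT-S1-S2-1 and PT-S1-S2-2 (means of the 4 mice). The number of nuclei behind each value is not known, and since each condition had 1 mouse, no difference below has a replicate check or a test. Differences between conditions or clusters are on the log2(value + 1) scale, which understates the change of low genes. A gene was compared where the larger value was at least 0.5 and was called higher or lower where the difference was at least 0.2. With a mean per nucleus, fewer transcripts in every nucleus and a smaller share of nuclei with the transcript cannot be told apart.

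Lrp2 and Cubn were highest in the normal proximal tubule, and Dab2 in most of it. Lrp2 was between 11.7 and 24.8 over the 5 normal proximal tubule clusters of the 4 mice and between 1.09 and 16.8 over the 16 clusters outside the proximal tubule. Cubn was between 3.48 and 11.5 in normal proximal tubule and between 0.387 and 5.93 outside. For both receptors, each of the 64 columns outside the proximal tubule was below every normal proximal tubule cluster of the same mouse. The 5 normal clusters took places 1 to 5 of 23 by the mean of the 4 mice, with EC-1 and DCT_CNT among the next. Neighbouring clusters in that order overlapped in their ranges over the 4 mice at all 22 steps for Lrp2 and at all 22 for Cubn, so the order within the normal clusters is not resolved. Dab2 was between 7.88 and 67.1 in normal proximal tubule and between 1.31 and 34.6 outside, and 1 step of its order, below PT-S3-1, had ranges that did not overlap. For Dab2, 49 of the 64 columns outside were below every normal cluster of the same mouse, and PT-S3-2 took place 11, below EC-1, DCT_CNT, the macrophages and MC.

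**Figure D1:**
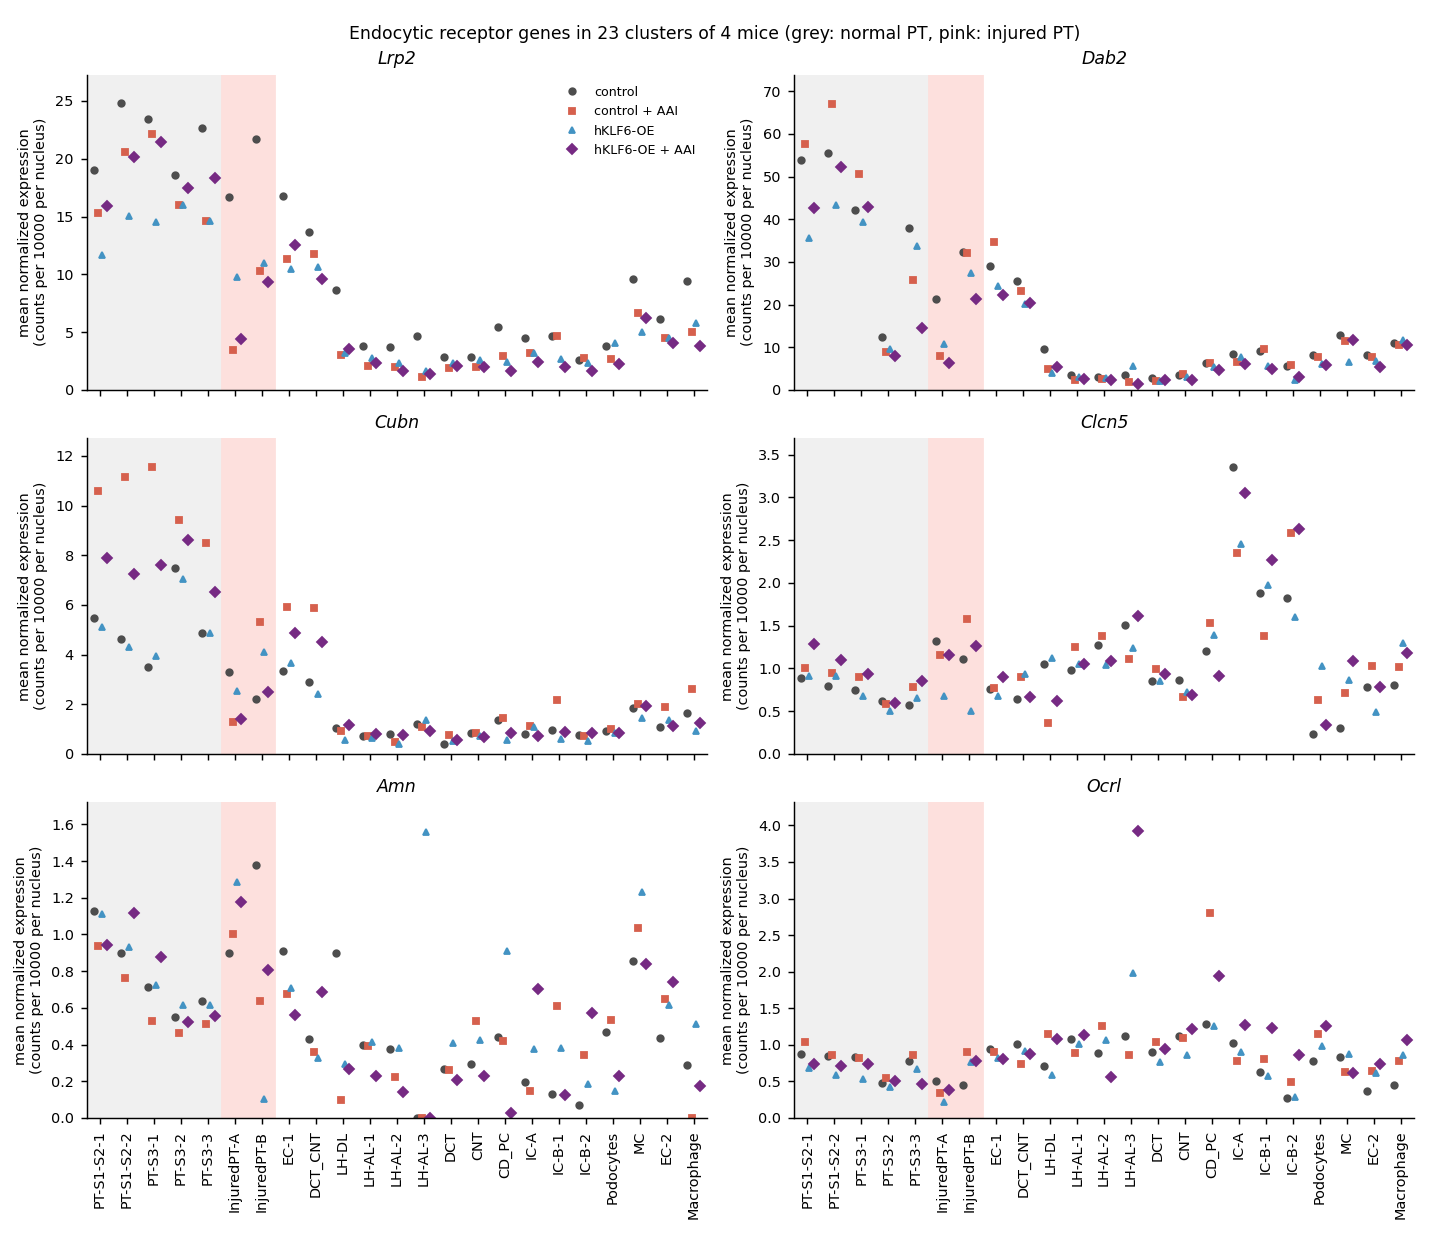
Mean normalized expression (vertical axis, counts per 10000 per nucleus) of each gene in 23 clusters (horizontal axis) of 4 mice, 1 point per mouse, with normal proximal tubule shaded grey and injured proximal tubule pink. Lrp2, Cubn and Dab2 are high in the grey area, Clcn5 is highest in the intercalated clusters, and Ocrl has its high values in CD_PC and LH-AL-3.

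Transcripts freed from broken cells reach nuclei of other types, so values outside the proximal tubule were divided by the normal proximal tubule mean of the same mouse and set beside the same ratio of 21 reference genes for transport and metabolism in the proximal tubule. Lrp2 was above the upper quartile of these reference genes in 1 of 64 columns and below the lower quartile in 36. Cubn was above in 0 and below in 50, and Dab2 above in 0 and below in 44. The ratios of these 3 genes outside the proximal tubule were therefore within or below the quartiles of the reference genes in nearly all columns, and no expression there is read from them. The reference genes were not low in every cluster. Their upper quartile in MC was 1.41 in hKLF6 OE and 1.35 in hKLF6 OE + AAI, above the proximal tubule mean itself. In EC-1 the ratios ran from 0.639 to 0.773 for Lrp2, from 0.580 to 0.728 for Cubn and from 0.695 to 0.823 for Dab2, beside reference medians of 0.729 to 0.810.

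Clcn5 and Ocrl had a different distribution. Clcn5 was above the upper quartile of the reference genes in 55 of 64 columns and Ocrl in 59, and Amn in 26. Clcn5 in IC-A, the acid-secreting intercalated cells, was 3.36 in control, 2.35 in control + AAI, 2.45 in hKLF6 OE and 3.05 in hKLF6 OE + AAI. In IC-B-2 it was 1.83, 2.58, 1.60 and 2.63, and in IC-B-1 1.88, 1.37, 1.98 and 2.26 in the same order of mice. All 12 of these values were above the highest Clcn5 value of a normal proximal tubule cluster in any mouse, 1.29. The proximal tubule means of Clcn5 were 0.728, 0.845, 0.730 and 0.956. IC-A was above IC-B-1 without overlap over the 4 mice, while the range of IC-B-2 overlapped both.

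Ocrl in CD_PC, the principal cells of the collecting duct, was 1.29 in control, 2.80 in control + AAI, 1.26 in hKLF6 OE and 1.95 in hKLF6 OE + AAI, beside proximal tubule means of 0.762, 0.823, 0.578 and 0.632. Each of the 4 was above every normal proximal tubule value of Ocrl, of which the highest was 1.03, and both AAI-treated mice were above both mice without AAI. The single highest value of Ocrl, 3.92, was in LH-AL-3 of hKLF6 OE + AAI, a column in which 61.5% of genes were at 0 and in which 3.92 is 41.3 times the smallest value above 0. The same cluster gave 1.13, 0.861 and 1.99 in the other mice. Amn was at 0 in LH-AL-3 of 3 mice and 1.56 in that of the hKLF6 OE mouse, so single Amn values in such clusters are not resolved.

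**Figure D2:**
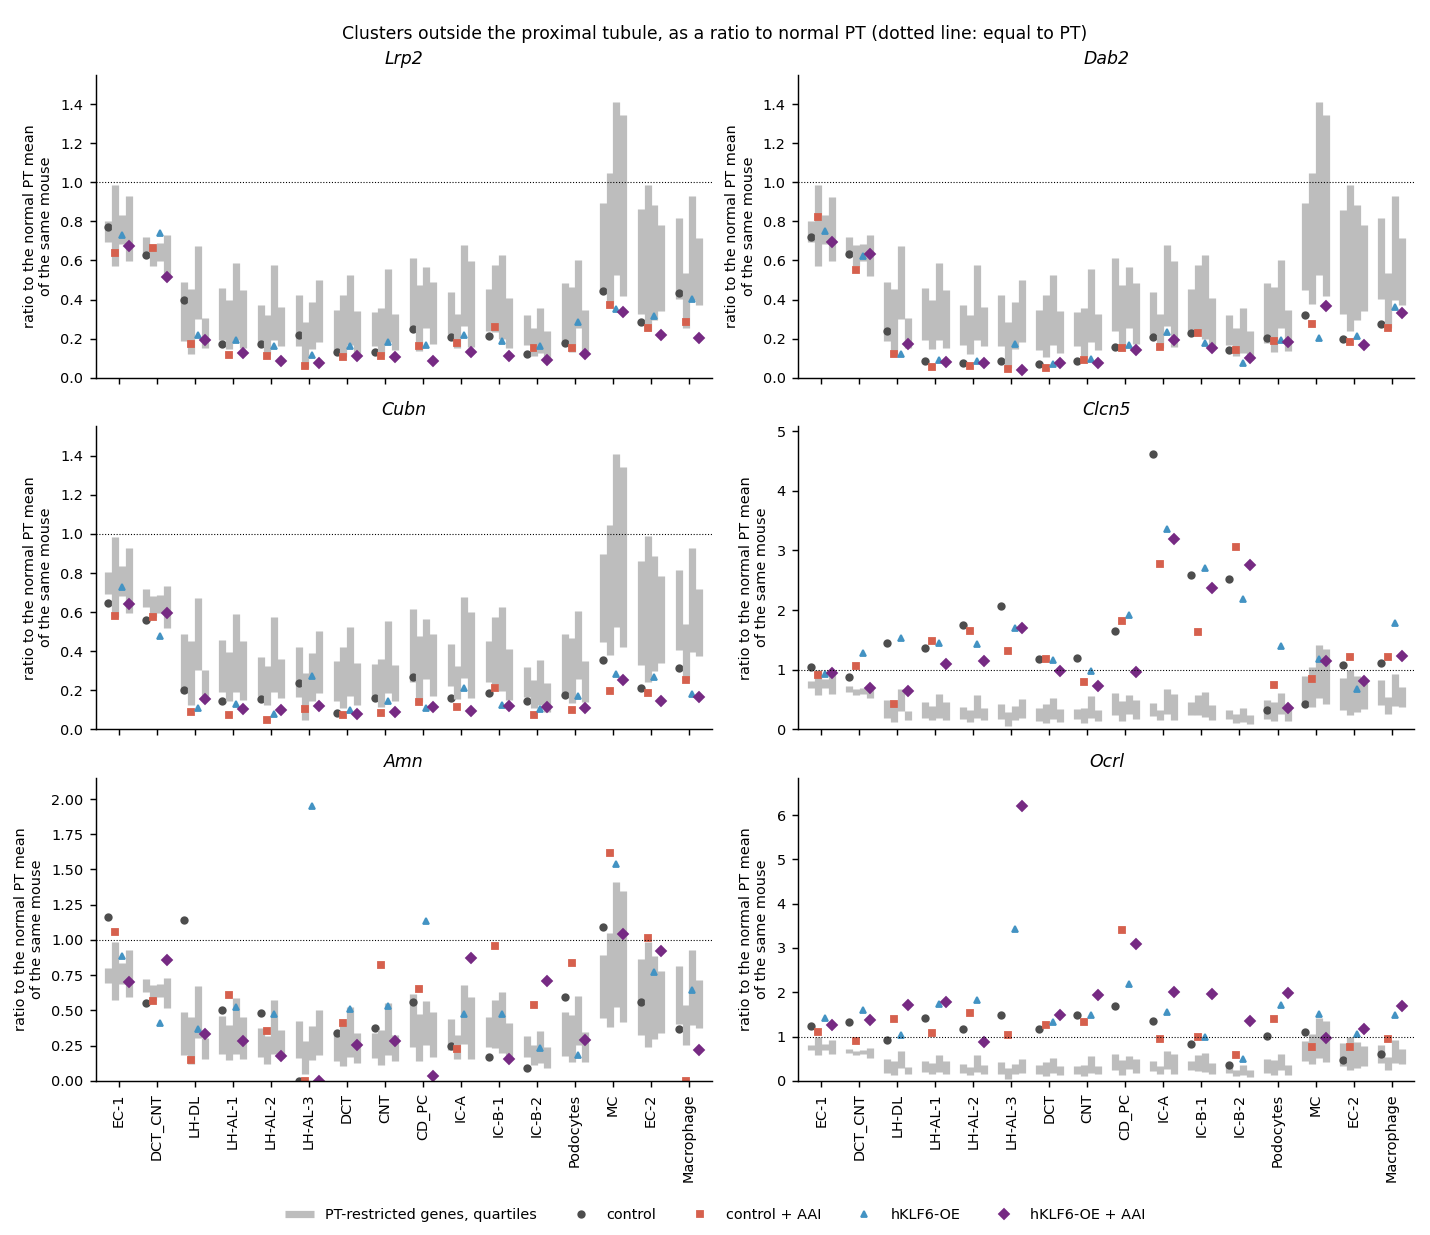
Ratio of each gene's value in 16 clusters outside the proximal tubule to the normal proximal tubule mean of the same mouse (vertical axis, no unit), 1 point per mouse. Grey bars span the quartiles of the same ratio over 21 proximal tubule reference genes, and the dotted line marks equality with the proximal tubule. Lrp2 lies above the grey bars in 1 of 64 columns and Cubn and Dab2 in 0, while Clcn5 and Ocrl lie above them in 55 and 59.

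Within the normal proximal tubule of the uninjured mice, the segment means of the receptors were not called different but those of Dab2 and Amn were. The mean of the 3 PT-S3 clusters was compared with that of the 2 PT-S1-S2 clusters in both uninjured mice. Dab2 was 30.9 in PT-S3 and 54.6 in PT-S1-S2 of the control mouse, and 27.6 and 39.5 in the hKLF6 OE mouse, differences of -0.80 and -0.50. Amn was 0.632 against 1.01 and 0.652 against 1.02, differences of -0.30 and -0.29. These 2 of the 6 genes were called lower in PT-S3, beside 14.7% of the 3913 genes compared. Lrp2 differed by -0.02 and 0.16 and Cubn by 0.06 and 0.14, and neither was called. The Cubn mean joined clusters on either side of the PT-S1-S2 means, 5.04 in control and 4.70 in hKLF6 OE. PT-S3-1 had 3.48 and 3.95 and PT-S3-2 7.47 and 7.05. Clcn5 differed by -0.16 and -0.25 and Ocrl by -0.13 and -0.09, and neither was called in both mice.

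The low PT-S3 mean of Dab2 came mostly from the cluster PT-S3-2. Dab2 in PT-S3-2 was 12.5 in control, 8.84 in control + AAI, 9.61 in hKLF6 OE and 7.88 in hKLF6 OE + AAI, while the mean of the other 4 normal clusters was 47.4, 50.3, 38.0 and 38.1. PT-S3-2 was the lowest normal cluster in each of the 4 mice, and the differences were -1.84, -2.38, -1.88 and -2.14. Of 3621 genes compared, 12.5% were lower in PT-S3-2 in all 4 mice by the same rule. With PT-S3-1 in place of all PT-S3 clusters, the Dab2 comparison of the segments was not called in the hKLF6 OE mouse. Over the 4 mice Cubn was instead highest in PT-S3-2, at 7.47, 9.44, 7.05 and 8.63, but in control + AAI that value was below those of 3 other normal clusters.

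In the wider pathway, calls between the segments of the uninjured mice are read beside the 14.7% of all genes that were lower and the 12.9% that were higher in PT-S3. Of the genes for vesicle acidification, 7 of 20 compared were lower in PT-S3 in both mice and none was higher, with the largest fall in Atp6v0a4, a membrane subunit of the vacuolar proton pump, at 3.99 against 5.82 and 4.69 against 6.99. Of the genes for endosome traffic, 5 of 17 were lower and 0 higher, with the largest fall in Appl2, an adaptor of early endosomes, by 0.52 and 0.54 on the log2 scale. Of the lysosome genes 4 of 10 were lower and 0 higher, and of the clathrin uptake genes 2 of 15 were lower, a share near that of all genes, and 0 higher. The receptor partners had 0 of 3 called, and the LDL receptor family had 1 higher and 1 lower of 5. The median differences of the acidification, traffic, lysosome and clathrin lists, in the control and then the hKLF6 OE mouse, ran from -0.19 to -0.06 and from -0.24 to -0.12, beside medians of all genes of 0.00 and -0.02.

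AAI was followed in normal proximal tubule by higher Cubn and, in opposite directions in the 2 genotypes, by a different Lrp2. Cubn, as the mean of the 5 normal clusters, was 5.18 in control and 10.2 in control + AAI, a difference of 0.86, and 5.05 in hKLF6 OE and 7.57 in hKLF6 OE + AAI, a difference of 0.50. Cubn was called higher in each of the 5 normal clusters of both genotypes, by 0.30 to 1.48 in the control genotype and by 0.26 to 0.80 with hKLF6. Of 3136 genes that could be compared in all 10 pairs of columns, 1.24% were higher in all 10. In the control genotype the clusters with and without AAI did not overlap, with a lowest Cubn value of 8.49 with AAI and a highest of 7.47 without. With hKLF6 they overlapped, since the lowest value with AAI, 6.50, was below the 7.05 of PT-S3-2 without it. Of the 16 clusters outside the proximal tubule, Cubn was called higher with AAI in 7 in the control genotype and in 9 with hKLF6. It was called lower there in 1 and 2, and the part of freed transcripts in this was not tested.

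Lrp2 in the normal clusters was 21.7 in control, 17.7 in control + AAI, 14.4 in hKLF6 OE and 18.7 in hKLF6 OE + AAI. It was lower with AAI by 0.28 in the control genotype and higher by 0.36 with hKLF6. In the control genotype 4 of the 5 normal clusters were called lower, and with hKLF6 4 of 5 were called higher. Of the 16 clusters outside the proximal tubule, Lrp2 was called lower with AAI in 13 and higher in 0 in the control genotype. With hKLF6 it was called lower in 8 of them and higher in 2, so most clusters outside did not share the rise of the normal clusters. Of 3892 genes compared in both genotypes, 0.642% were called lower with AAI in control and higher with hKLF6. In the control genotype 2 of the 6 genes were called, Lrp2 lower and Cubn higher, beside 23% of the 4052 genes compared that were called in either direction. With hKLF6, 2 of the 6 were called higher, beside 19.5% of 4133 genes, and 0 were called lower.

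**Figure D3:**
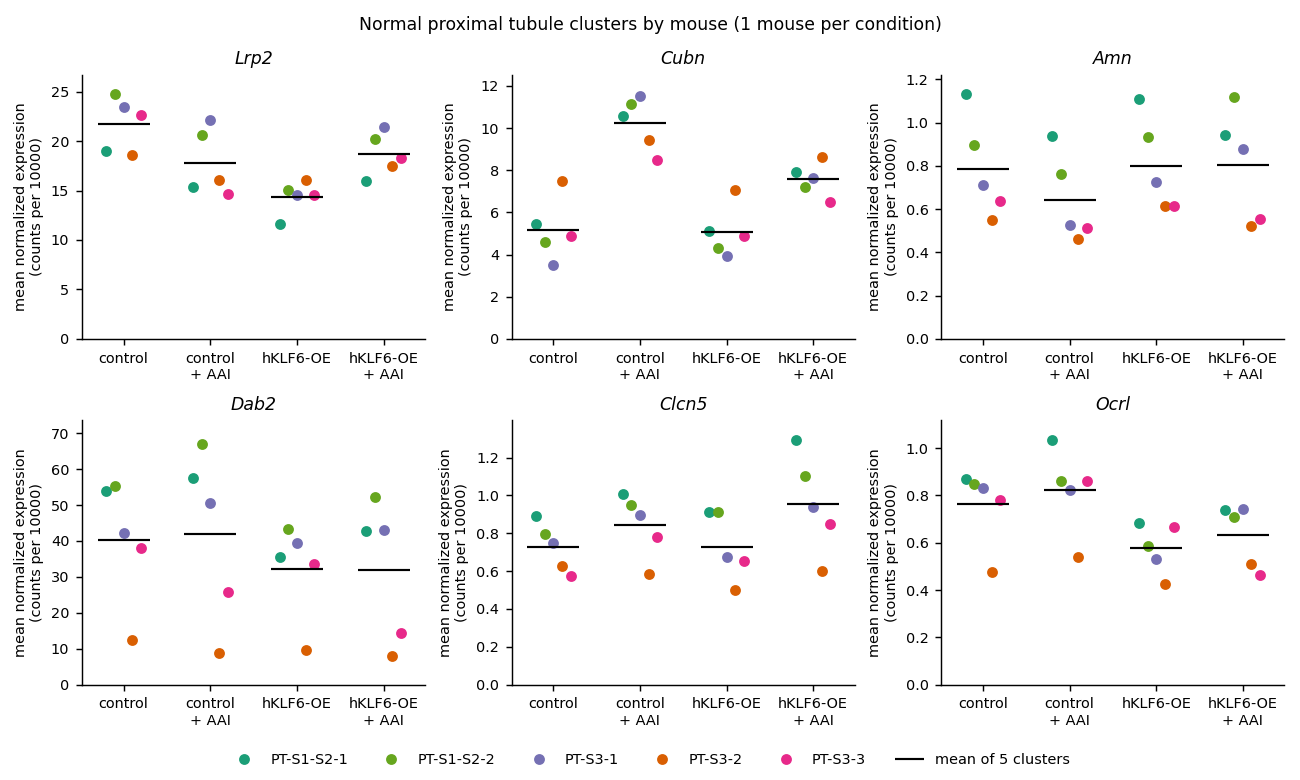
Mean normalized expression (vertical axis, counts per 10000) of each gene in the 5 normal proximal tubule clusters of 4 mice (horizontal axis), 1 coloured point per cluster, with the mean of the 5 as a black line. Cubn is higher in both AAI-treated mice, Lrp2 is lowest in the hKLF6 OE mouse with a mean of 14.4, and the PT-S3-2 point of Dab2 lies far below the others in each mouse.

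The other members were not called in the mean of the normal clusters. Dab2 was 40.4 in control and 42.0 in control + AAI, and 32.3 in hKLF6 OE and 32.0 in hKLF6 OE + AAI, but these means joined clusters that moved apart. In PT-S3-3, Dab2 was 38.0 without and 25.8 with AAI in the control genotype, and 33.6 and 14.4 with hKLF6, differences of -0.54 and -1.17. In PT-S3-2 the differences were -0.45 and -0.26, while in PT-S1-S2-2 Dab2 was 55.4 and 67.1 in the control genotype and 43.4 and 52.2 with hKLF6, higher by 0.27 and 0.26. Being lower with AAI in both PT-S3-2 and PT-S3-3 of both genotypes was shared by 4.16% of 3557 genes. Amn was 0.785 in control, 0.641 in control + AAI and 0.804 in hKLF6 OE + AAI, and its value in hKLF6 OE lay between those of control and hKLF6 OE + AAI. Ocrl was 0.762, 0.823, 0.578 and 0.632 in control, control + AAI, hKLF6 OE and hKLF6 OE + AAI.

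In the wider pathway, 23% of all genes in the control genotype and 34.9% with hKLF6 were called with AAI in either direction, and the lists had these counts. Of the clathrin uptake genes, 3 of 16 were higher and 3 lower in the control genotype, and 5 of 15 were higher and 2 lower with hKLF6. Picalm, a clathrin assembly protein, had the largest rise of that list in both genotypes, from 3.20 to 4.00 and from 2.83 to 4.57. Vesicle acidification had 1 higher and 1 lower of 19 in the control genotype and 3 higher and 4 lower of 19 with hKLF6, with Atp6v0b the largest fall in both. Endosome traffic had 2 higher and 1 lower of 18 in the control genotype and 3 higher and 2 lower of 18 with hKLF6, and the lysosome 2 higher and 1 lower of 9 and then 0 higher and 3 lower of 9. Of the 21 proximal tubule reference genes, 10 were lower and 3 higher in the control genotype and 11 lower and 2 higher with hKLF6. Cyp7b1, an oxysterol hydroxylase, was among the higher ones in both, as Cubn was.

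Without injury, Lrp2 and Dab2 were lower in the hKLF6 OE mouse than in control. Lrp2 was 14.4 against 21.7, a difference of -0.56, and was called lower in each of the 5 normal clusters, by 0.20 in PT-S3-2 and by 0.60 to 0.69 in the others. Being lower in all 5 was shared by 3.31% of 3349 genes. Dab2 was 32.3 against 40.4, a difference of -0.31, with 3 of 5 clusters called. These were 2 of the 6 members, beside 9.33% of the 4041 genes compared, and 0 were higher. Other proximal tubule genes were also lower: 11 of the 21 reference genes were called lower, with a median difference of -0.21 and the largest fall in Keg1, at 54.0 against 84.3, and 1 was higher, Kap, at 84.4 against 56.4. Lrp2 was lower in 15 of the 16 clusters outside the proximal tubule too, with 12 called and means over the 16 of 4.13 and 6.44, and the part of transcripts freed from proximal tubule cells in this was not tested.

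With AAI in both genotypes, the difference in Lrp2 was 0.07 and was not called. Cubn was 7.57 in hKLF6 OE + AAI against 10.2 in control + AAI, a difference of -0.39 with 4 of 5 clusters called. Dab2 was 32.0 against 42.0, a difference of -0.38 with 4 of 5 called. These 2 of the 6 members were lower beside 7.74% of 3942 genes. Of the 21 reference genes 15 were lower and 0 higher with a median of -0.36, close to the differences of Cubn and Dab2. These comparisons share mice with the preceding ones and are not independent of them. Clathrin uptake, endosome traffic, vesicle acidification and the lysosome had at most 4 genes called in one direction in either comparison of the genotypes, the 4 being vesicle acidification genes higher in the uninjured hKLF6 OE mouse, of 19 compared, beside 7.84% of all genes.

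The 2 injured clusters separated the 6 genes. InjuredPT-A and InjuredPT-B are proximal tubule clusters that the study assigned to injury, and each was set against the 5 normal clusters, averaged, of its own AAI-treated mouse. A gene was counted where both mice were called the same way. The clusters were defined on the same expression values, so a difference between clusters describes that grouping and is not independent of it. In InjuredPT-A, Lrp2, Cubn, Dab2 and Ocrl were lower and Amn was higher, beside 27% and 43.3% of the 5008 genes compared. In InjuredPT-B, Lrp2, Cubn and Dab2 were lower and Clcn5 was higher, beside 13.1% and 23.4% of 4148 genes. The median difference of all genes was 0.19 and 0.15 in InjuredPT-A of control + AAI and hKLF6 OE + AAI and 0.11 and 0.10 in InjuredPT-B, and relative to it the calls of Amn and Clcn5 as higher were lost while those of the lower genes remained.

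Lrp2 in InjuredPT-A was 3.45 beside a normal mean of 17.7 in control + AAI, and 4.37 beside 18.7 in hKLF6 OE + AAI, differences of -2.08 and -1.87. Both values were below each of the 5 normal clusters of their mouse, of which the lowest were 14.6 and 15.9. In InjuredPT-B Lrp2 was 10.3 and 9.33, also below every normal cluster, with differences of -0.74 and -0.93.

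Cubn in InjuredPT-A was 1.30 beside 10.2 in control + AAI, and 1.42 beside 7.57 in hKLF6 OE + AAI, differences of -2.29 and -1.82. In InjuredPT-B it was 5.32 and 2.48, differences of -0.83 and -1.30. All 4 values were below every normal cluster of the same mouse. The call in InjuredPT-B of control + AAI depends on the reference, because Cubn in the normal clusters was itself higher with AAI: beside the uninjured mouse of the same genotype, at 5.18, the InjuredPT-B value of control + AAI differed by 0.03. With hKLF6 it did not depend on it, since 2.48 beside the 5.05 of the uninjured hKLF6 OE mouse was a difference of -0.80.

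Dab2 in InjuredPT-A was 7.98 beside 42.0 in control + AAI, and 6.23 beside 32.0 in hKLF6 OE + AAI, differences of -2.26 and -2.19. These were lower than the lowest normal cluster, PT-S3-2, which had 8.84 and 7.88, but close to it. In InjuredPT-B Dab2 was 32.1 and 21.4, which lay within the range of the normal clusters, and beside the 3 PT-S3 clusters alone the difference in control + AAI was 0.17 and not -0.38. The difference of -0.56 in hKLF6 OE + AAI depends on the reference too. There 21.4 was above the 7.88 of PT-S3-2 and the 14.4 of PT-S3-3 and below the 43.0 of PT-S3-1. Ocrl in InjuredPT-A was 0.347 beside 0.823 and 0.378 beside 0.632, below every normal cluster of both mice.

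Amn and Clcn5, the partner of cubilin and the endosomal exchanger, did not follow the receptors. Amn in InjuredPT-A was 1.00 beside 0.641 in control + AAI and 1.18 beside 0.804 in hKLF6 OE + AAI, above every normal cluster of its mouse in both, with differences of 0.29 and 0.27. In InjuredPT-B it was 0.639 and 0.808, differences of 0.00 and 0.00. Clcn5 was 1.15 and 1.16 in InjuredPT-A, differences of 0.22 and 0.14 that were not called, and 1.57 and 1.26 in InjuredPT-B, differences of 0.48 and 0.21. Beside the uninjured mouse of the same genotype, at 0.728 in control and 0.730 in hKLF6 OE, Clcn5 in InjuredPT-A was called higher in both. The ratio of the injured to the normal value was thus 0.127 and 0.188 for Cubn in InjuredPT-A and 1.56 and 1.46 for its partner Amn.

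**Figure D4:**
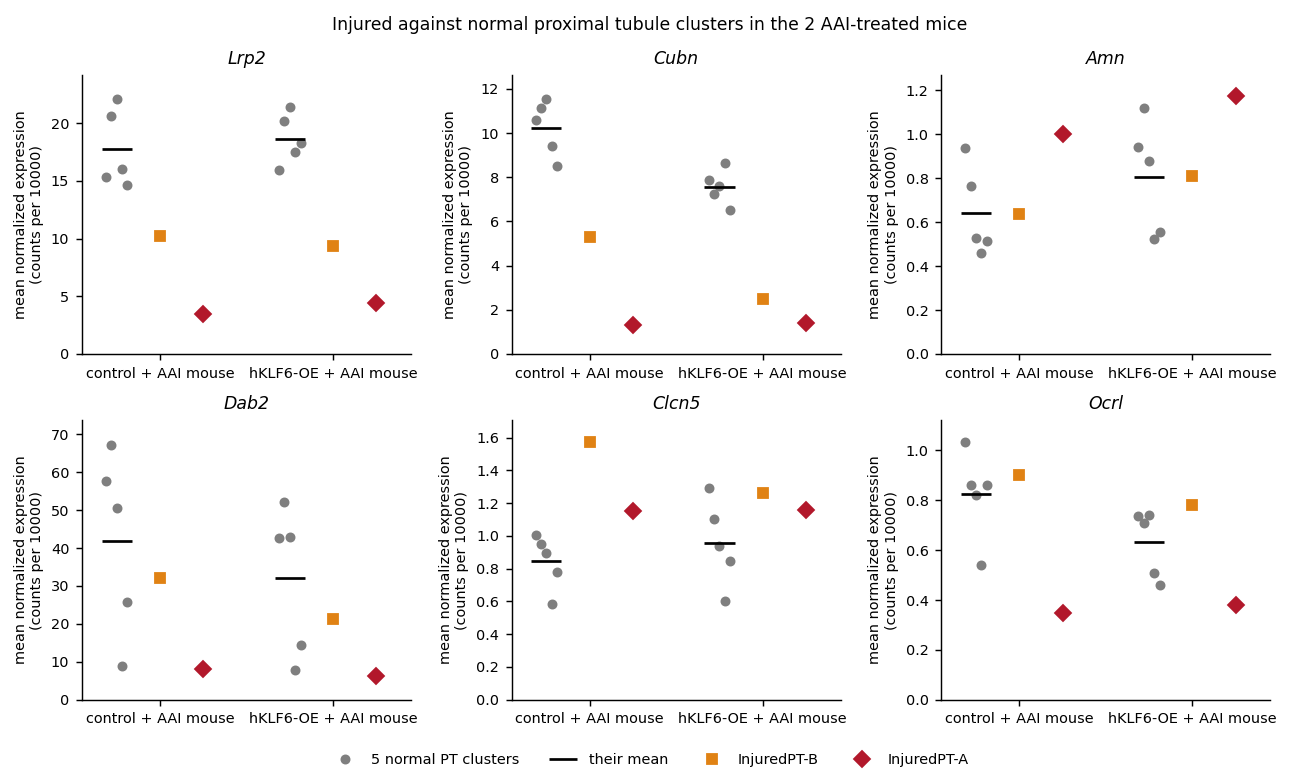
Mean normalized expression (vertical axis, counts per 10000) of each gene in the 2 AAI-treated mice (horizontal axis): 5 normal proximal tubule clusters in grey with their mean as a line, InjuredPT-B as an orange square and InjuredPT-A as a red diamond. Lrp2, Cubn, Dab2 and Ocrl in InjuredPT-A lie below every normal cluster of their mouse, and Amn in InjuredPT-A lies above every one.

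The injured clusters also had columns in the uninjured mice, where the receptors were lower in some columns and not in others. Lrp2 in InjuredPT-A was 16.7 in control and 9.73 in hKLF6 OE, and Dab2 21.2 and 10.7, beside normal means of 21.7 and 14.4 for Lrp2 and 40.4 and 32.3 for Dab2, and Cubn was 3.29 and 2.52 beside 5.18 and 5.05. In InjuredPT-B the ratio to the normal mean, in control and then hKLF6 OE, was 1.00 and 0.764 for Lrp2, 0.427 and 0.815 for Cubn and 0.803 and 0.849 for Dab2. The Cubn ratio of control was below the 0.519 of control + AAI. These columns were sparse, with 40.8% to 62.6% of genes at 0 in the injured clusters of the uninjured mice beside 22.2% to 29.7% in those of the AAI-treated mice, so their values rest on fewer reads or nuclei and were not compared further.

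Lrp2, Cubn and Dab2 were lower in InjuredPT-A than the typical proximal tubule reference gene. Of the 21, 14 were lower in both mice and 4 higher, and the median ratio to the normal mean was 0.470 in control + AAI and 0.633 in hKLF6 OE + AAI, beside ratios of 0.194 and 0.234 for Lrp2 and 0.190 and 0.194 for Dab2. Cyp7b1 had the largest fall, to 0.763 from 12.1 and to 2.18 from 14.1. Kap, an androgen-regulated protein of the proximal tubule, had the largest rise, to 110.2 from 47.8 and to 101.2 from 35.5. In InjuredPT-B 15 of the 21 were lower and 0 higher, with median ratios of 0.634 and 0.450, and the members were not below the typical reference gene throughout. There Dab2, with ratios of 0.764 and 0.668, was above the median in both mice, Cubn, with 0.519 and 0.328, below it in both, and Lrp2 below it in control + AAI, with 0.578, and above it in hKLF6 OE + AAI. Markers of other cell types moved with InjuredPT-A: the summed level of 7 of 12 marker lists in control + AAI and 10 of 12 in hKLF6 OE + AAI was above that of every normal cluster, although the sums in control + AAI were 0.318% to 6.91% of the highest in a cluster outside the proximal tubule. In hKLF6 OE + AAI the list nearest to its level outside was that of the descending limb, which summed to 0.888 in InjuredPT-A, against 0.332 to 0.639 in the normal clusters and 7.86 in the highest cluster outside. Of the 51 list entries, Cldn16 and Slc14a2 were at 0 in InjuredPT-A of control + AAI and Egfl7, Slc14a2 and Itga8 in that of hKLF6 OE + AAI. In InjuredPT-B the summed level was above that of every normal cluster for 0 of the 12 lists in control + AAI and 4 in hKLF6 OE + AAI. The part of these markers in the result was not tested.

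Calls in InjuredPT-A moved with genomic span. In InjuredPT-A, 71.6% of the 1082 genes with a genomic span over 100 kb were lower in both mice and 6.75% higher, beside 6.29% lower and 73.7% higher of the 1987 genes under 30 kb. The median difference of genes over 100 kb was -0.52 in both mice. Lrp2, Cubn and Dab2, all over 100 kb, were lower by 1.82 to 2.29, and Clcn5, of 165.5 kb, was not lower. Ocrl, of 53.5 kb, had differences of -0.44 and -0.24, beside 23.1% of the 1889 genes of 30 to 100 kb that were lower and 32.2% that were higher. Amn, under 30 kb, had differences of 0.29 and 0.27 beside medians of 0.47 and 0.46 for its class. In InjuredPT-B the difference between classes was smaller, with 27.1% of genes over 100 kb and 8.23% under 30 kb lower. The part of span in the low receptor values was not tested.

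**Figure D5:**
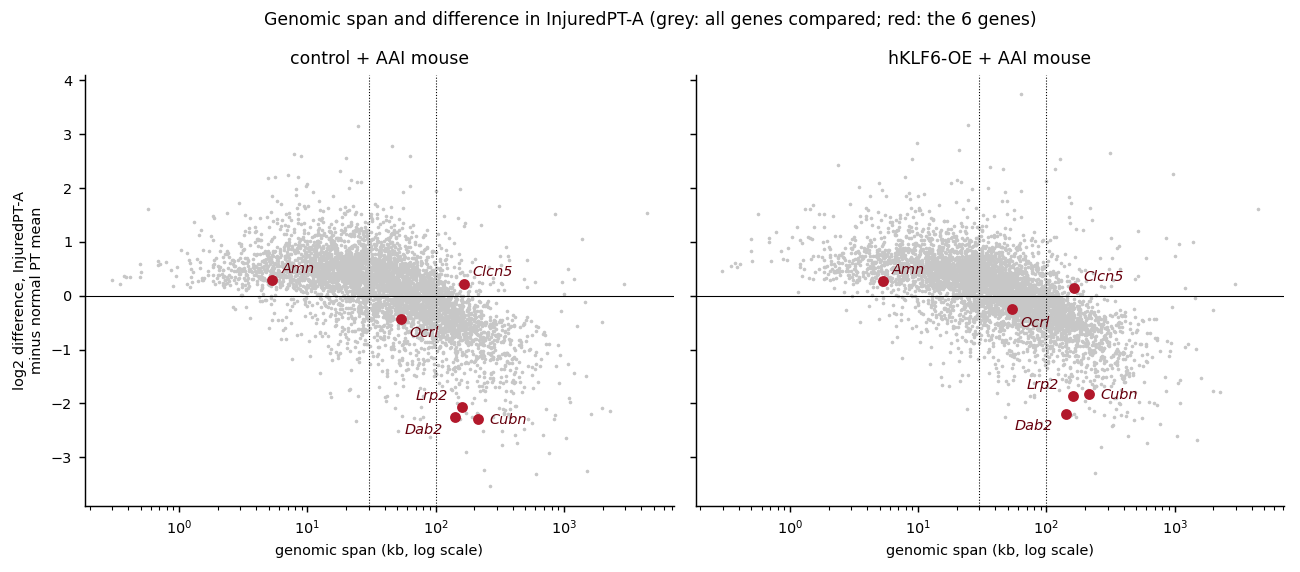
Genomic span (horizontal axis, kb on a log scale) and log2 difference of InjuredPT-A from the normal proximal tubule mean (vertical axis) for the genes compared, in grey, and the 6 genes, in red, with 1 panel per AAI-treated mouse. Dotted lines mark 30 and 100 kb. Lrp2, Cubn and Dab2 lie below most genes of similar span, and Clcn5, of similar span, lies above 0.

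Of the compartments behind the receptors, calls in InjuredPT-A are read beside 43.3% of all genes higher and 27% lower, and beside 73.7% higher among genes under 30 kb. Of the vesicle acidification genes, 15 of 23 were higher and 5 lower in both mice, with the largest rise in Atp6v0b, a proton pump subunit, to 2.76 from 0.982 and to 2.64 from 0.969, and the largest fall in Atp6v0a4, to 1.04 from 5.72 and to 1.33 from 5.49. Of the endosome traffic genes, 13 of 24 were higher, a share near that of all genes, and 5 lower. Micall1, a scaffold of recycling endosomes, rose by 1.36 and 1.64, and Rab11fip3, an effector of the recycling GTPase Rab11, fell, with log2 differences of -1.74 and -1.84. Of the lysosome genes, 7 of 11 were higher and 2 lower, led by Ctsl, the protease cathepsin L, at 4.70 beside 1.61 and 4.04 beside 1.33, and with the largest fall in Tfeb, a transcription factor of lysosomal genes. The medians of these 3 lists were 0.32, 0.33 and 0.40 in control + AAI and 0.52, 0.39 and 0.30 in hKLF6 OE + AAI, beside 0.19 and 0.15 over all genes compared.

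At the plasma membrane, clathrin uptake had 4 higher, a smaller share than that of all genes, and 5 lower, a share near it, of 17, with the largest rise in Snx18, a sorting nexin, by 0.82 and 0.64, and the largest fall in Itsn2, a scaffold of clathrin-coated pits. The LDL receptor family, to which Lrp2 belongs, had 1 higher, Lrp10, and 2 lower of 5, with the largest fall in Lrp6, the Wnt co-receptor. Partners of the receptors had 2 higher and 1 lower of 5. Fcgrt, the neonatal Fc receptor that salvages albumin and IgG, was 1.16 beside 0.505 and 0.945 beside 0.394, and the one lower was the endocytic adaptor Numb.

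In InjuredPT-B fewer genes were called in all, 23.4% higher and 13.1% lower, and the lists are read beside these shares. Endosome traffic had 7 of 22 higher and 1 lower, with the largest rise in Snx5, a retromer-associated sorting nexin, by 0.72 and 0.50, and the 1 lower gene was again Rab11fip3, with log2 differences of -0.47 and -0.55. Vesicle acidification had 4 of 18 higher, led by Atp6v1b2, and 3 lower, with the largest fall again in Atp6v0a4, at 3.57 beside 5.72 and 2.95 beside 5.49. The lysosome list had 2 of 10 higher, led by Ctsb, the protease cathepsin B, and 0 lower. Clathrin uptake had 1 of 15 higher, Hip1r, and 0 lower, and the receptor partners and the LDL receptor family had 0 called.

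Across the 92 columns, the members fell into a group of 3 and 3 others. Pearson's r of log2(value + 1) was 0.90 between Lrp2 and Dab2, 0.89 between Lrp2 and Cubn and 0.84 between Cubn and Dab2, and between -0.39 and 0.13 for each pair with Clcn5 or Ocrl. Amn had r of 0.44 to 0.55 with the 3. These coefficients describe columns that share mice, library preparation and the 23 clusters. Among the 20 normal proximal tubule columns alone, r was 0.02 between Lrp2 and Cubn and 0.26 between Lrp2 and Dab2, while Dab2 had 0.79 with Ocrl, 0.67 with Amn and 0.67 with Clcn5.

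Of 4272 genes with a mean of at least 0.5, the ones with a pattern most like Lrp2 over the 92 columns were Keg1, with r of 0.97, Slc47a1, Fut9, Fggy and Hnf4aos. Those for Cubn were Gk, with 0.94, Fut9, Pter, Scp2 and St8sia1, and those for Dab2 were the bicarbonate transporter Slc4a4, with 0.94, Aoah, Fut9, Glis1 and Errfi1. Amn had lower coefficients, the first being 0.70 with Aldh7a1, before Slc7a9, Neu1 and 4931406C07Rik. Clcn5 had 0.79 with Prkcd, followed by Cpeb2, Atp6v0d2, a proton pump subunit of intercalated cells, Syn2 and Wscd2. Ocrl had 0.63 with Pappa, followed by Myo9a, Kcnc2 and Vps13c.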

How the data were processed

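Kidney nuclei of 4 mice, 1 per condition, were sequenced by the authors in a single technical batch, aligned to a mouse pre-mRNA reference (mm10, per the submitters' processing notes) with Cell Ranger 3.1.0, and clustered with Seurat 4.3. Nuclei with fewer than 200 or more than 6000 genes or over 10% mitochondrial genes were excluded. Removal of doublets is described only for the chromatin data. The deposited signal values are mean normalized expression per cluster and mouse, read from the values, since each of 92 columns sums to 10000. How many nuclei stand behind a column, and their depth, is not given in the table used here, and no interval is given.

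Of 19632 rows, 23 with date-like names were left out. Clusters, numbered in the table, took their names from the sheet order of the study's marker table. Differences were taken on log2(value + 1), where the larger of both values reached 0.5, and called at 0.2. Normal proximal tubule is the unweighted mean of 5 clusters. No test was made, since each condition has 1 mouse, and clusters of a mouse are not replicates. The clusters were defined on the same expression values that are compared between them. The members and gene lists were chosen with earlier results of these data known. The lists held receptor partners (8 genes), the LDL receptor family (11), clathrin uptake (25), endosome traffic (36, of which 31 were in the table), vesicle acidification (28, of which 27 were in the table), the lysosome (19) and proximal tubule reference genes (21). Named genes are the 6 members, the largest rise and fall of a list in a comparison (with 2 mice, by the smaller difference), and the 5 genes most correlated with each member; Cyp7b1, Keg1 and Kap fall under the second part, and markers are named for the check of cluster names. Some genes that this rule names are not reported here. Promoter windows are from RefSeq and matched all 6 members; spans are from GENCODE. The calling rule was run on simulated data with planted changes far above the threshold and little noise, in genes above the normal proximal tubule levels of Amn, Clcn5 and Ocrl. The simulation held no variation between mice, so it does not bear on how far the calls would repeat. Python 3.11.15, numpy 2.4.6, pandas 2.3.3 and matplotlib 3.10.9 were used.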

Additional observations from a re-analysis of the deposited data

Results flagged for a closer look

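Lrp2 in normal proximal tubule was lower with AAI in the control genotype and higher with AAI in the hKLF6 genotype, and this opposite direction brought it here. The log2 differences were -0.28 and 0.36, and the second minus the first was 0.63. With 1 mouse in each condition the difference was not tested. Most of it lies in the uninjured mice, which had 21.7 in control and 14.4 in hKLF6 OE, while the AAI-treated mice had 17.7 and 18.7.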

How the results depend on the processing

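No paired analysis was possible because each condition has 1 mouse. Of 593 single-gene values recomputed under other settings, 498 stayed on their side of the threshold, 57 fell below it and 30 rose above it. A further 8 changed sign where the value was called under the main setting, the other one or both. A change of sign between values that were both under the threshold is counted among the 498.

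The counts of members that moved by over 1.5 times, and the lower members of the injured clusters, were as follows. Every other count of members changed by at most 1. With a pseudocount of 0.1, 2 members were lower with AAI in control, 1 was higher in hKLF6 OE + AAI than control + AAI, and 2 were higher in InjuredPT-A. With a minimum value of 2, which left 3 members, 0 were higher in either injured cluster, 3 were lower in InjuredPT-A and 1 was lower in PT-S3. At a threshold of 0.5, 0 were lower with AAI in control, 1 was higher with AAI in hKLF6, 1 was lower in hKLF6 OE without AAI and 0 with it, 0 were higher in either injured cluster, 3 were lower in InjuredPT-A and 2 in InjuredPT-B, and 1 was lower in PT-S3. At a threshold of 1, 3 were lower in InjuredPT-A and every other count was 0. Centring on the median of all genes left 0 higher in either injured cluster. Leaving out mitochondrially encoded genes or the minimum changed no count.

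With 1 normal cluster in place of 5, the counts were: PT-S1-S2-1, 4 higher with AAI in hKLF6; PT-S1-S2-2, 2 higher with AAI in control and 1 higher in hKLF6 OE + AAI than control + AAI; PT-S3-1, 0 lower and 2 higher with AAI in control and 1 higher in hKLF6 OE + AAI; PT-S3-2, 2 lower with AAI in control, 1 lower and 1 higher with AAI in hKLF6, and 0 lower in hKLF6 OE + AAI; PT-S3-3, 2 lower with AAI in control, 1 lower with AAI in hKLF6, 1 lower in hKLF6 OE and 1 higher in hKLF6 OE + AAI. The 3 PT-S3 clusters as the reference gave 2 higher in InjuredPT-A, and both these and the uninjured mouse gave 3 lower in InjuredPT-A and 2 in InjuredPT-B, and PT-S3-2 alone gave 1 higher in PT-S3.

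The changes of sign with a called value were these. Dab2 with AAI differed by 0.26 in PT-S1-S2-1 and 0.26 in PT-S1-S2-2 with hKLF6, and by -0.45 in PT-S3-2 and -0.54 in PT-S3-3 in control. Dab2 in InjuredPT-B of control + AAI differed by 0.17 from the PT-S3 clusters, and Cubn by 0.032 from the uninjured mouse. Cubn in PT-S3-1 against PT-S1-S2 differed by -0.43 in control and -0.21 in hKLF6 OE. Apart from the references and clusters, whose values are in the text, the cause was not tested. Depth limits Amn, Clcn5 and Ocrl most, whose values lie near the minimum of 0.5.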
